A study of Mus musculus with 8 samples.

Results

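The 8 genes that encode the constant regions of the mouse immunoglobulin heavy chains were followed in total splenocytes by RNA sequencing. They are Ighm, Ighd, Ighg3, Ighg1, Ighg2b, Ighg2c, Ighe and Igha, chosen by name, and all 8 were found among the 51826 genes of the count table. The cells came from Balb/c mice euthanized at 3 months of age, none of which had been injected with pristane. The tRA group (n = 4 mice) was given all-trans retinoic acid (tRA), the active metabolite of vitamin A, orally each day from weaning at 1 mg/kg body weight, and the control group (n = 4 mice) was the vehicle arm, canola oil by the study's methods. The labels carry the same treatment text for all 8 mice, so the groups were taken from the sample titles. The libraries held 30919272 to 37539631 counts in the control group and 31810417 to 35165876 in the tRA group. Values are given as CPM, counts scaled to a common library total after TMM, a normalization that corrects for differences in library composition.

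An antibody heavy chain joins a variable region, which binds antigen, to a constant region, which sets the class of the antibody and what it does. Naive B cells use the constant regions of IgM and IgD, both cut from the same long transcript by alternative processing, and an activated B cell can exchange them for a downstream constant region by class switch recombination, a deletion of the DNA between repetitive switch regions. The spleen holds mostly naive follicular and marginal zone B cells, with a small number of switched cells and of plasma cells, which make far more heavy chain mRNA per cell than naive cells do. Retinoic acid is known for favouring IgA in lymphoid tissue of the gut, which gives the comparison of tRA with control its question for these genes in the spleen.

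Markers of the main lymphocytes of the spleen were present in every library. The 9 B cell markers summed to 7086 to 8282 CPM in the control mice and 7650 to 7863 CPM in the tRA mice, and Cd79a, a signalling chain of the B cell receptor, was the most abundant of them. The 7 T cell markers summed to 1280 to 1608 CPM in the control mice and 1474 to 1537 CPM in the tRA mice. Of the 3 kidney tubule genes used as a check on tissue identity, Umod had no counts in any library and Slc34a1, the most abundant, had between 4 and 11 counts.

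The 8 genes lie in a row on the minus strand of chromosome 12, over 167901 bases at chr12:113254830-113422730 (GRCm38). In the direction of transcription the order is Ighm at chr12:113418558-113422730, Ighd at chr12:113406604-113416324, Ighg3 at chr12:113356224-113361232, Ighg1 at chr12:113325240-113330523, Ighg2b at chr12:113302965-113307933, Ighg2c at chr12:113285325-113288932, Ighe at chr12:113269260-113273248 and Igha at chr12:113254830-113260236. No other gene of the count table overlapped any of the 8 on either strand in the GENCODE M21 annotation. Each gene has 2 annotated transcripts, a shorter and a longer. Heavy chain genes make a secreted and a membrane form of the protein by the choice of the last exons, and counts per gene add both.

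Levels were compared between the genes per kilobase of merged exon. Ighm was the highest, with 5459 ± 513 CPM per kb in the control mice (SD, n = 4) and 4703 ± 555 in the tRA mice. Ighd came next, with 732 ± 55.7 CPM per kb in the control mice and 815 ± 65.1 in the tRA mice. These are the classes of cells that have not switched, and together they took 97.7% to 98.4% of the counts of the 8 genes in the control mice and 97.0% to 97.9% in the tRA mice.

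The switched classes followed at a distance, and the mean of Ighd over the 8 mice was 16.0 times that of Igha. Igha, at 40.1 ± 8.60 CPM per kb in the control mice and 56.6 ± 14.3 in the tRA mice, stood above Ighg3 in all 8 mice, although the ranges of both genes overlapped. Ighg3 stood at 33.1 ± 6.67 CPM per kb in the control mice and 30.8 ± 5.74 in the tRA mice, on average 3.84 times the level of Ighg1, with no overlap between those ranges. Ighg1 and Ighg2b were not apart beyond their spread, with means over all mice of 8.32 and 7.52 CPM per kb and Ighg1 the higher in 6 of 8 mice. Ighg2c was lower, with a mean of 4.90 CPM per kb and a range that overlapped that of Ighg2b. Ighe was the lowest in every mouse, with a mean of 0.637 CPM per kb. The order of all 8 genes was the same when the length of the shortest annotated transcript was used in place of the merged exons. The distances between them were not. The mean over all mice became 6418 in place of 5081 CPM per kb for Ighm and 1833 in place of 774 for Ighd. It became 18.1 in place of 7.52 for Ighg2b and 5.85 in place of 4.90 for Ighg2c.

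**Figure D1:**
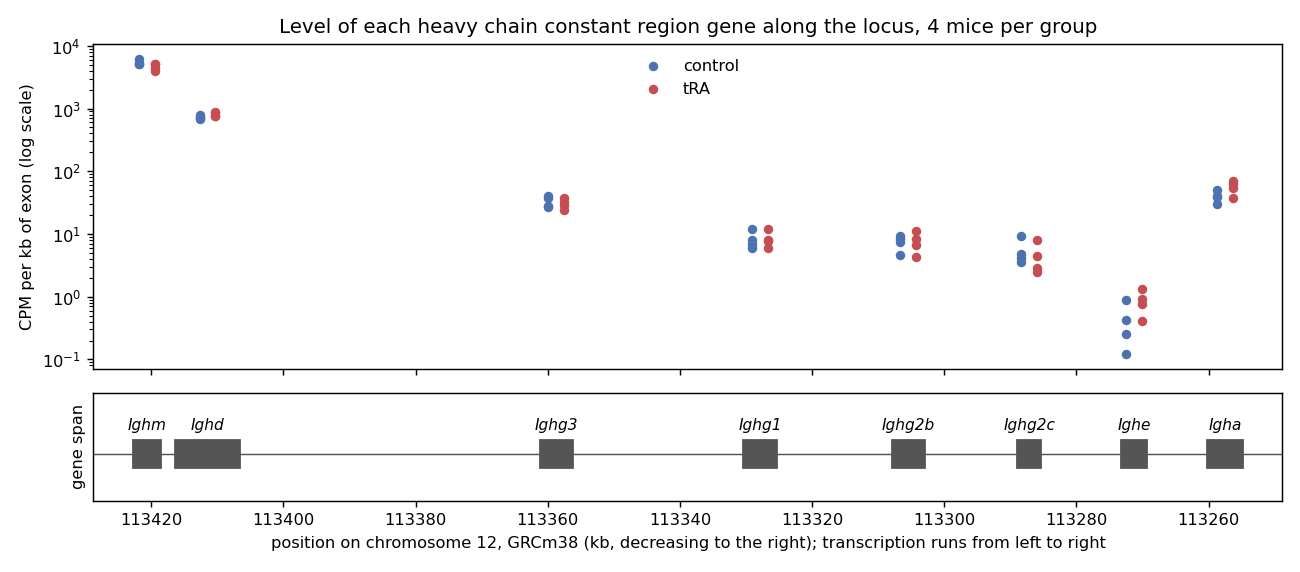
The upper panel shows the level of each heavy chain constant region gene as CPM per kb of merged exon (log scale) in each of 4 control mice (blue) and 4 tRA mice (red), and the lower panel shows the gene spans to scale on chromosome 12 (GRCm38), drawn so that transcription runs from left to right. The levels drop from Ighm, with a mean of 5081 CPM per kb over all mice, along the locus to Ighe, with 0.637, and are higher again at Igha, with 48.3.

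Each gene was tested for a difference between tRA and control in a quasi-likelihood fit by edgeR that covered the 16484 genes past the filter on low counts, and p was adjusted over all of them by the Benjamini-Hochberg method (false discovery rate, FDR). All 8 genes passed the filter. At an FDR under 0.1, 0 of the 8 and 0 of the 16484 genes (0%) were called by edgeR, while 1070 genes had an unadjusted p under 0.05. At the same FDR, DESeq2 with its own filter called 27 genes, DESeq2 on the genes past the filter called 25 and limma-voom called 1, and none of these called any of the 8. At an unadjusted p under 0.05, 1 of the 8 genes passed, Igha, which was higher in the tRA mice. Over all genes tested, 6.49% passed this threshold, 2.94% as higher in tRA and 3.55% as lower, so that 1 of 8 is near the background. This background was not fixed, as 2105 genes passed without tRA mouse 1 and 657 without tRA mouse 4. With scaling by library size alone, 657 passed as higher and 501 as lower. The CPM ranges of the control and tRA mice overlapped for all 8 genes, whereas 3.54% of all genes tested had groups that did not overlap. The median log2 fold change of the 8 genes was 0.03, with 5 positive and 3 negative, beside a median of 0.00 over all genes tested, with 8290 positive and 8194 negative.

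Ighm encodes the μ chain of IgM, which serves as the antigen receptor of naive B cells and is the class secreted early in a response. Its level was 9699, 9705, 10048 and 11727 CPM in control mice 1 to 4 and 7598, 9757, 9700 and 8427 CPM in tRA mice 1 to 4. Control mouse 4 was the highest, tRA mice 1 and 4 were below every control mouse, and tRA mice 2 and 3 lay within the control range. All 4 tRA mice were below the control mean of 10295 CPM. The log2 fold change was -0.21 (95% interval -0.46 to 0.03), with an unadjusted p of 0.0829 and an FDR of 0.780 by edgeR, and the exact two-sided permutation test over the 8 mice gave p = 0.143. DESeq2 on the genes past the filter gave an unadjusted p of 0.0492 with an FDR of 0.711. In bulk samples, fewer cells of a type and less RNA per cell cannot be told apart, which holds for every level given here.

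Ighd encodes the δ chain of IgD, which mature naive B cells carry on their surface beside IgM. Its level was 1412, 1525, 1355 and 1273 CPM in control mice 1 to 4 and 1428, 1467, 1694 and 1608 CPM in tRA mice 1 to 4. All 4 tRA mice were above the control mean of 1391 CPM, and tRA mice 3 and 4 were above every control mouse, while control mouse 2 was above tRA mice 1 and 2. The log2 fold change was 0.16 (95% interval -0.04 to 0.35), with an unadjusted p of 0.107 and an FDR of 0.790 by edgeR. The exact permutation p was 0.114.

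The mean of Ighm was thus lower and that of Ighd higher in the tRA mice, neither at an unadjusted p under 0.05 by edgeR. The ratio of their counts within a mouse does not depend on the scaling of the libraries. There were 6.87, 6.36, 7.42 and 9.21 Ighm counts for each Ighd count in control mice 1 to 4, and 5.32, 6.65, 5.73 and 5.24 in tRA mice 1 to 4. Of the tRA mice, 1, 3 and 4 were below every control mouse, and tRA mouse 2 lay above control mouse 2, so the groups overlapped. This ratio, like the others given below, was chosen after the levels were seen and was not tested.

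Zfp318, a zinc finger protein needed for the IgD form of the long transcript, was the most abundant of the 6 genes of heavy chain RNA processing. It had a mean of 294 CPM in the control mice and 306 CPM in the tRA mice, with a log2 fold change of 0.06 and an FDR of 0.921 by edgeR. Of the 6 genes 0 passed an unadjusted p under 0.05, and their median log2 fold change was 0.04.

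Ighg3 encodes the γ3 chain, an IgG subclass made mainly against carbohydrate antigens and in part by marginal zone B cells. Its level was 67.4, 70.3, 94.0 and 100.9 CPM in control mice 1 to 4 and 61.2, 72.05, 95.3 and 81.0 CPM in tRA mice 1 to 4. Low and high mice occurred in both groups, with tRA mouse 1 the lowest of all 8 and control mouse 4 the highest. This gave a log2 fold change of -0.10 (95% interval -0.45 to 0.24) with an FDR of 0.904 by edgeR.

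Ighg1 encodes the γ1 chain, the subclass that interleukin 4 favours in mice. Its level was 18.1, 15.3, 20.7 and 30.9 CPM in control mice 1 to 4 and 15.3, 20.5, 31.6 and 20.1 CPM in tRA mice 1 to 4. Each group held 1 mouse well above its other members, control mouse 4 and tRA mouse 3, and the group ranges nearly coincided. Between the groups the log2 fold change was 0.04 (95% interval -0.49 to 0.58) with an FDR of 0.982 by edgeR.

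Ighg2b encodes the γ2b chain, a subclass that transforming growth factor β can induce. Its level was 12.4, 25.0, 20.3 and 22.3 CPM in control mice 1 to 4 and 11.5, 22.0, 30.04 and 17.6 CPM in tRA mice 1 to 4. Mouse 1 was the lowest of each group, and the tRA range enclosed the control range. For Ighg2b the log2 fold change was 0.02 (95% interval -0.58 to 0.63) with an FDR of 0.991 by edgeR.

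Ighg2c encodes the γ2c chain, the subclass that interferon γ favours in C57BL/6 mice. Balb/c mice carry the allelic form Ighg2a in its place, so the counts are Balb/c reads placed on a C57BL/6 gene and the effect of this on its level was not tested. The level was 5.58, 4.73, 6.24 and 12.1 CPM in control mice 1 to 4 and 3.24, 3.75, 10.4 and 5.90 CPM in tRA mice 1 to 4. Control mouse 4 and tRA mouse 3 stood apart from the rest, as they did for Ighg1, and tRA mice 1 and 2 were below every control mouse. The log2 fold change was -0.29 (95% interval -1.14 to 0.56) with an FDR of 0.888 by edgeR. Its sign depended on these mice, as it was 0.0835 without control mouse 4 and -0.74 without tRA mouse 3. Interferon γ itself, Ifng, had a mean of 15.6 CPM in the control mice and 10.7 CPM in the tRA mice, a log2 fold change of -0.55, an unadjusted p of 0.0125 and an FDR of 0.757.

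The 4 IgG genes differ in the length and sequence of the hinge, a short exon that encodes the flexible link between the arms and the stem of the antibody. Across the whole coding sequence of the longer annotated form, Ighg2b and Ighg2c were identical at 88.2% of aligned bases, and the other pairs at 78.2% to 80.4%. In the exon of the second constant domain Ighg2b and Ighg2c reached 94.2%, in the hinge 81.0% and in that of the third domain 77.6%. In the exon of the first domain they were at 87.6% and were not the closest pair. There Ighg1 was at 88.3% with Ighg2b and at 88.0% with Ighg2c. The hinge exons are shown from the GENCODE M21 transcripts because they differ in length and in number of cysteine codons, with in-frame TGT and TGC codons in capitals. Cysteines of the hinge can tie the heavy chains together, and which of those marked do so was not examined.
Ighg3: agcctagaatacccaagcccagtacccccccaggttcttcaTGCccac
Ighg1: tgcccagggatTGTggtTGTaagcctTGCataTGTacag
Ighg2b: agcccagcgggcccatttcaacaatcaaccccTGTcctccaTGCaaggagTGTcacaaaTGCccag
Ighg2c: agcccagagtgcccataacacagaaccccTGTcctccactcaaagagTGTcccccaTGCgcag

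These exons, all on the minus strand, lie at chr12:113360529-113360576 for Ighg3 (48 bases), chr12:113329844-113329882 for Ighg1 (39 bases), chr12:113307261-113307326 for Ighg2b (66 bases) and chr12:113288263-113288325 for Ighg2c (63 bases). Ighg1 and Ighg2b have 4 such codons in the exon, Ighg2c has 3 and Ighg3 has 1. The sequence is that of the C57BL/6 reference, and the Balb/c alleles were not analysed here.

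How far reads could be shared between the genes was described from windows of the annotated transcripts. Of all windows of 50 bases, 5.49% in Ighg2c and 4.15% in Ighg2b also occurred in a transcript of another of the 8 genes, against 1.58% in Ighg3 and 0.393% in Ighg1. All were shared with other IgG genes. No window of 50 bases in Ighm, Ighd, Ighe or Igha, and no window of 100 bases in any of the 8 genes, occurred in another of them. How reads from such shared stretches were assigned is not given in the sources used here. The IgG pseudogene Gm37944, which lies between Ighg2b and Ighg1, had 8 counts over all 8 libraries.

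Ighe encodes the ε chain of IgE, the class that arms mast cells and basophils. It had 51, 13, 23 and 6 counts in control mice 1 to 4 and 40, 47, 24 and 68 counts in tRA mice 1 to 4, which is 1.38, 0.405, 0.665 and 0.194 CPM and 1.22, 1.48, 0.651 and 2.08 CPM. Control mouse 1 was above tRA mice 1 and 3, and tRA mouse 3 was below control mouse 3, so the groups overlapped, although tRA mice 2 and 4 were above every control mouse. The exact Poisson 95% interval ran from 2.20 to 13.1 for the 6 counts of control mouse 4 and from 52.8 to 86.2 for the 68 counts of tRA mouse 4, and covers counting error only. For control mouse 1 it ran from 38.0 to 67.1 and for tRA mouse 1 from 28.6 to 54.5, so these overlapped. Control mouse 3, with 14.6 to 34.5, also overlapped tRA mouse 3, with 15.4 to 35.7. The log2 fold change was 1.01 (95% interval -0.13 to 2.14), with an unadjusted p of 0.0761 and an FDR of 0.778 by edgeR, and the exact permutation p was 0.143. The unadjusted p was under 0.05 in DESeq2 with its own filter (0.0445) but not on the genes past the filter (0.0519), and it was under 0.05 when low counts were not filtered out (0.0309), without control mouse 1 (0.00689) and without tRA mouse 3 (0.0315). By edgeR it was 0.169, 0.121 and 0.162 without control mouse 2, 3 or 4. Without tRA mouse 1, 2 or 4 it was 0.0884, 0.129 and 0.212. The log2 fold change was 1.66 without control mouse 1 and 0.71 without control mouse 4.

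Igha encodes the α chain of IgA, the class that is secreted across mucosal surfaces and, as serum IgA, circulates. Its level was 79.8, 107.7, 104.4 and 135.8 CPM in control mice 1 to 4 and 101.0, 169.4, 189.2 and 144.0 CPM in tRA mice 1 to 4. In the tRA group, mice 2, 3 and 4 were above every control mouse, while mouse 1 was below control mice 2, 3 and 4. The means were 106.9 ± 22.9 CPM in the control mice and 150.9 ± 38.0 CPM in the tRA mice (SD, n = 4), a log2 fold change of 0.50 (95% interval 0.07 to 0.92). The unadjusted p was 0.0255 and the FDR 0.757 by edgeR, and the exact permutation test gave p = 0.143, where 4 mice against 4 allow no p below 0.0286. The unadjusted p was 0.0737 without control mouse 1, 0.0559 without control mouse 3, 0.0706 without tRA mouse 2 and 0.0810 without tRA mouse 3. It was 0.00361 when low counts were not filtered out, 0.00889 in DESeq2 with its own filter and 0.0110 on the genes past the filter, and 0.00861 without control mouse 4. Without tRA mouse 1 it was 0.00165, with an FDR of 0.211, the lowest FDR of any of the 8 genes under any alternative.

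**Figure D2:**
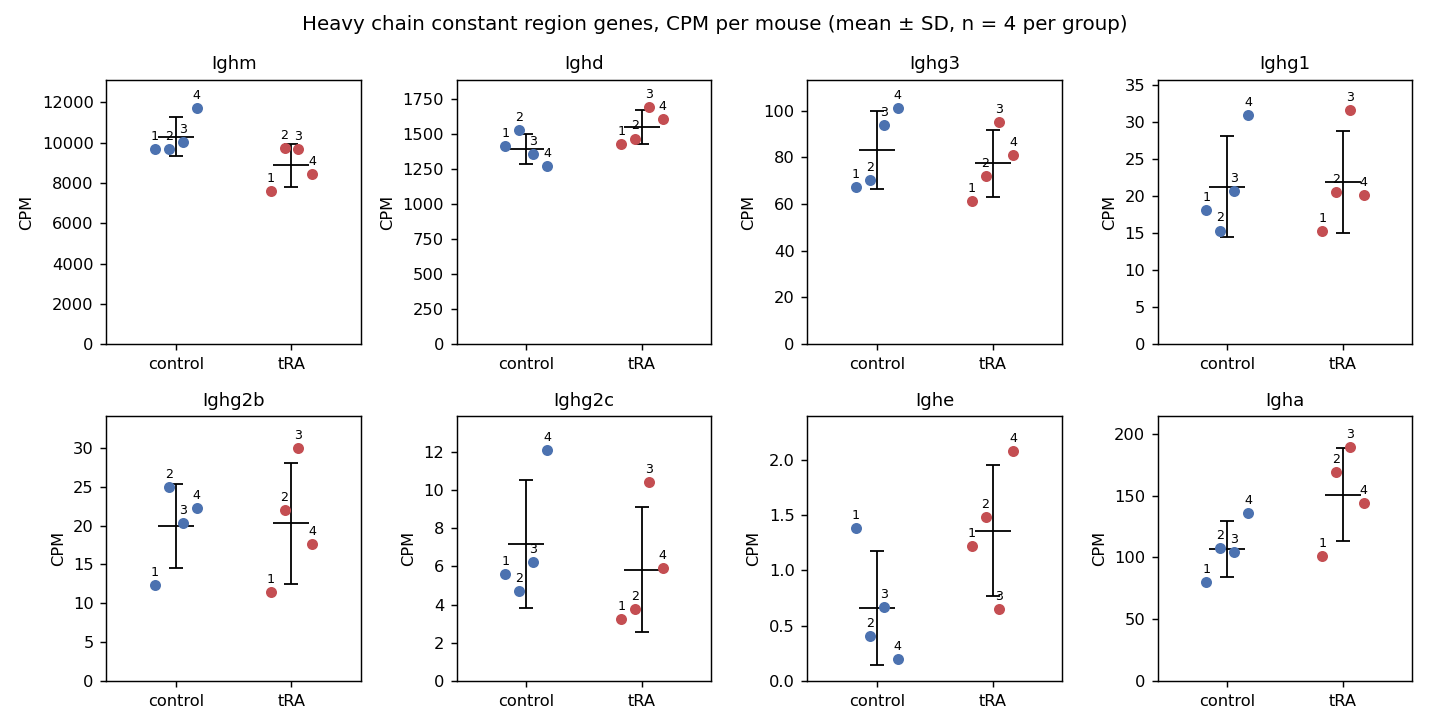
CPM of each heavy chain constant region gene in 4 control mice (blue) and 4 tRA mice (red), numbered by replicate, on linear axes that start at 0, with the mean (long bar) and SD (whiskers). The groups overlap for all 8 genes, and Igha shows 3 of 4 tRA mice above the highest control mouse.

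The genes were not equally variable among mice of the same group. The coefficient of variation was 7.60% for Ighd and 9.41% for Ighm in the control mice, between 20.2% and 46.9% for the IgG genes, 21.5% for Igha and 78.2% for Ighe. In the tRA mice it was 7.99% for Ighd, 11.8% for Ighm, between 18.6% and 56.3% for the IgG genes, 25.2% for Igha and 43.6% for Ighe. The rarely used genes were thus the most variable, and a difference of a given size was harder to see in them.

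The same mice tended to be high or low for several genes. In the tRA group, mouse 1 had the lowest value of 7 of the 8 genes, all but Ighe, and mouse 3 had the highest value of 6, all but Ighm and Ighe. In the control group, mouse 4 had the highest value of 5 genes, Ighm, Ighg3, Ighg1, Ighg2c and Igha, and the lowest value of Ighd and Ighe.

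Shares within the locus were compared next, since they relate each class to the other classes of the same mouse. IgA took 0.706%, 0.940%, 0.896% and 1.02% of the counts of the 8 genes in control mice 1 to 4 and 1.096%, 1.47%, 1.61% and 1.40% in tRA mice 1 to 4. Every tRA mouse was above every control mouse, and the mean was 0.503 percentage points higher in the tRA group. Most of the counts in the denominator are Ighm, whose mean was lower in the tRA mice. The Igha level of tRA mouse 1, 101.0 CPM, was within the control range, and its sum of the 8 genes, 9219 CPM, was the lowest of all mice. It was the only one of the 5 class shares whose groups did not overlap. As above, 3.54% of all genes tested had CPM groups that did not overlap, but this is a background for levels of single genes and not for shares. The shares were given as values with no test.

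The IgM share was 85.9%, 84.7%, 86.3% and 88.2% in control mice 1 to 4 and 82.4%, 84.7%, 82.5% and 81.8% in tRA mice 1 to 4. Control mouse 2 and tRA mouse 2 had nearly equal shares, and the other 3 tRA mice were below every control mouse. The IgD share ran from 9.57% to 13.3% in the control mice and from 12.7% to 15.6% in the tRA mice, with an overlap between control mouse 2 and tRA mouse 2. The IgG share overlapped widely, at 0.916% to 1.25% in the control mice and 0.990% to 1.42% in the tRA mice, and the IgE share was at most 0.0202% in any mouse.

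Among the counts of the 6 switched genes alone, Igha took 43.2%, 48.2%, 42.4% and 44.9% in control mice 1 to 4 and 52.2%, 58.6%, 53.0% and 53.2% in tRA mice 1 to 4. The 4 IgG genes together took 51.6% to 57.3% in the control mice and 40.9% to 47.2% in the tRA mice. Neither share overlapped between the groups. Since Ighe, the remaining gene, took at most 0.767% in any mouse, the 2 shares are nearly complements and not separate results. In counts, there were 0.815 ± 0.0849 Igha counts for each IgG count in the control mice and 1.21 ± 0.152 in the tRA mice (SD, n = 4). Both measures were chosen after the levels were seen and were not tested. In all, 6 count ratios were computed. The remaining 4 are given here so that those that do not overlap can be read beside those that do. Igha over Ighm ran from 0.00823 to 0.0116 in the control mice and 0.0133 to 0.0195 in the tRA mice, and Igha over Jchain from 0.139 to 0.201 and 0.275 to 0.442, both without overlap. Ighg1 over Ighg2c, at 2.55 to 3.31 and 3.03 to 5.47, and Ighm over Igkc, at 1.89 to 1.94 and 1.68 to 2.09, overlapped. The 3 ratios without overlap all have Igha as numerator, so they are not separate results. The summed level of the 4 IgG genes, 131.6 ± 28.0 CPM in the control mice and 125.4 ± 31.5 CPM in the tRA mice, overlapped.

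**Figure D3:**
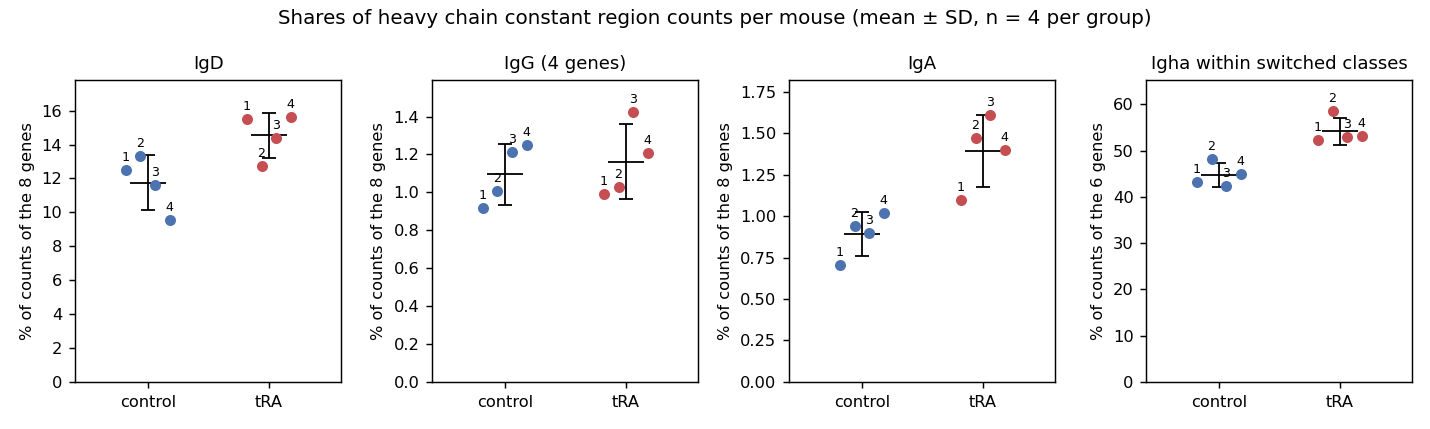
Shares of the heavy chain constant region counts in 4 control mice (blue) and 4 tRA mice (red), numbered by replicate, with the mean (long bar) and SD (whiskers), on axes that start at 0. The first 3 panels give IgD, IgG and IgA as a percentage of the counts of all 8 genes, and the last gives Igha as a percentage of the counts of the 6 switched genes, where the tRA mice lie between 52.2% and 58.6% and the control mice between 42.4% and 48.2%.

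The summed level of the 8 genes, most of it Ighm, was 11296, 11454, 11650 and 13302 CPM in control mice 1 to 4 and 9219, 11513, 11751 and 10306 CPM in tRA mice 1 to 4. Mice 1 and 4 of the tRA group were below every control mouse and the others were within the control range. The summed levels of the variable genes overlapped as well. The 113 Ighv genes summed to 510 to 800 CPM in the control mice and 389 to 715 CPM in the tRA mice. The 100 Igkv genes summed to 1695 to 2219 CPM in the control mice and 1252 to 1967 CPM in the tRA mice, and the 3 Iglv genes to 177 to 241 CPM and 141 to 225 CPM.

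Heavy chains pair with light chains, and IgM and IgA polymers are joined by the J chain. Igkc, the constant region of the κ light chain, was at 5145, 4998, 5209 and 6098 CPM in control mice 1 to 4 and 4509, 4996, 4633 and 4832 CPM in tRA mice 1 to 4. The groups did not overlap, though control mouse 2 and tRA mouse 2 were nearly equal, and the log2 fold change was -0.18 with an FDR of 0.780 by edgeR. The constant regions of the λ chain overlapped between the groups, with log2 fold changes of -0.29 for Iglc1, -0.15 for Iglc2 and 0.06 for Iglc3. That of Iglc1 was -0.09 without control mouse 1, which stood at 193 CPM while the other control mice lay between 110 and 128 CPM.

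Jchain, which encodes the J chain, was at 574, 537, 604 and 722 CPM in control mice 1 to 4 and 367, 541, 428 and 436 CPM in tRA mice 1 to 4. It went in the direction opposite to Igha, with 3 of 4 tRA mice below every control mouse, a log2 fold change of -0.46 (95% interval -0.74 to -0.18), an unadjusted p of 0.00390 and an FDR of 0.757 by edgeR. Mzb1, a chaperone for immunoglobulin assembly in marginal zone B cells and plasma cells, was at 76.5 to 94.4 CPM in the control mice and 64.4 to 74.2 CPM in the tRA mice, with an unadjusted p of 0.00247 and an FDR of 0.757. Of the 8 partner and signalling chains, 0 passed an unadjusted p under 0.05 as higher and 2 as lower, with a median log2 fold change of -0.17. Those lower were Jchain and Mzb1. Over all genes tested, 2.94% passed as higher and 3.55% as lower.

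Plasma cells are the richest source of heavy chain mRNA, and their markers were read beside the heavy chain genes. Of 10 plasma cell markers, 0 were higher and 4 lower at an unadjusted p under 0.05, and none passed an FDR under 0.1 by edgeR. Over all genes tested, 2.94% were higher and 3.55% lower at this unadjusted p. The median log2 fold change of the markers was -0.15. Of the 10, 6 had a negative and 4 a positive log2 fold change. The positive ones were Slamf7 (0.22), Prdm1 (0.11), Xbp1 (0.02) and Irf4 (0.01). Jchain and Mzb1 also stand in the list of partner and signalling chains, so both counts rest in part on the same genes. Besides Jchain and Mzb1, the markers lower at an unadjusted p under 0.05 were Tnfrsf17, a survival receptor of plasma cells, with a mean of 1.86 CPM in the control mice and 1.08 CPM in the tRA mice, and Derl3, a factor of protein quality control in the endoplasmic reticulum, with 16.0 and 12.2 CPM. Derl3 did not keep this threshold without control mouse 4, where its log2 fold change was -0.23 in place of -0.39. The markers summed to 1118, 1091, 1093 and 1294 CPM in control mice 1 to 4 and 989, 1132, 877 and 882 CPM in tRA mice 1 to 4, Jchain being the most abundant, and none of the 10 was at 0. The part of plasma cell number in the levels of the heavy chain genes was not tested.

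Markers of other cells were read in the same way. All 6 neutrophil markers were lower in the tRA mice at an unadjusted p under 0.05, with a median log2 fold change of -0.83. Over all genes tested, 3.55% were lower at this threshold. The paper lists Camp, Ngp and Ltf among its significant genes from this same comparison. The markers were chosen with earlier results of these data known, so their count is not independent of those results. They summed to 807, 1036, 1057 and 900 CPM in control mice 1 to 4 and 465, 494, 469 and 768 CPM in tRA mice 1 to 4, which did not overlap. Ngp, a granule protein of developing neutrophils, was the most abundant, with a log2 fold change of -0.92. Camp, the precursor of an antimicrobial peptide of the granules, had the lowest FDR of all genes tested by edgeR, 0.135, with a log2 fold change of -1.23, and Ltf, lactoferrin, had -0.88. The FDR of Camp was 3.4e-10 in DESeq2 with its own filter and 0.0533 in limma-voom. By edgeR with no filter on low counts it was 2.3e-04. No neutrophil marker was at 0, and their part in the shares and levels of the heavy chain genes was not tested.

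The remaining marker lists held at most 1 gene at an unadjusted p under 0.05, and that gene, S1pr2, lost this threshold under several alternatives. Among all genes tested, 6.49% passed it. Of the 9 B cell markers 0 passed, with a median log2 fold change of 0.00. Of the 7 germinal centre markers 1 passed as higher, S1pr2, a receptor that keeps B cells in the germinal centre, with 4.28 CPM in the control mice and 5.43 CPM in the tRA mice, and the most abundant, Bcl6, the transcription factor that directs germinal centre formation, had a log2 fold change of 0.19. Of the 4 marginal zone markers 0 passed, and Cr2, a complement receptor of B cells, had a log2 fold change of -0.02. The T cell list of 7 genes, the red cell list of 4 and the macrophage list of 5 had 0 at this threshold, with medians of 0.11, 0.44 and -0.02, and their most abundant genes, the T cell kinase Lck, the globin Hbb-bs and the adhesion molecule Vcam1, had log2 fold changes of -0.07, 0.45 and -0.04. That of Hbb-bs was -0.16 without tRA mouse 3 and 0.93 without control mouse 3.

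Class switching depends on enzymes that act on DNA and repair it. Of 23 genes of this kind 1 was higher and 1 lower at an unadjusted p under 0.05, with a median log2 fold change of 0.02. The shares over all genes tested were 2.94% higher and 3.55% lower. Lig4, the ligase that seals broken DNA ends, had 9.70 ± 0.816 CPM in the control mice and 11.5 ± 1.22 CPM in the tRA mice (SD, n = 4), with an unadjusted p of 0.0489 that went above 0.05 without 6 of the 8 mice in turn. H2afx, a histone that marks DNA breaks, had 41.5 ± 2.37 and 34.1 ± 4.60 CPM. Parp1, a sensor of DNA breaks, was the most abundant of the list, with a log2 fold change of 0.06.

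The choice of class is directed by cytokines and contact with T cells. Of 25 genes of this kind 23 were tested, since the interleukin genes Il13 and Il5 had too few counts. At an unadjusted p under 0.05, 0 passed as higher and 1 as lower, Ifng, beside 2.94% and 3.55% of all genes tested. The median log2 fold change was -0.03. Stat6, which carries the interleukin 4 signal, was the most abundant, with a log2 fold change of 0.05. Of 9 receptors for immunoglobulins 8 were tested, 0 passed, and the median log2 fold change was -0.01. The low-affinity IgE receptor Fcer2a, the most abundant, had 787 CPM in the control mice and 872 CPM in the tRA mice, with a log2 fold change of 0.15.

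The genes whose log2 CPM followed each heavy chain gene most closely over the 8 mice were looked up among 13570 genes with a mean of at least 1 CPM, with Pearson's r as the measure. With so many candidates and 8 mice a high r is easily reached, and the values are a description. Ighm was followed by Rpn2 (0.986), Creb3l2 (0.966) and Lars (0.964), and Ighd by Ankrd6 (0.976), P2ry12 (0.958) and Tctn1 (0.953). Ighg3 was followed by Angptl2 (0.976), Clec10a (0.944) and Taf1c (0.939), and Ighg1 by Gm37169 (0.942) and Nt5e (0.935). Rpn2 belongs to the complex that adds sugars to proteins in the endoplasmic reticulum, and Nt5e is the surface enzyme CD73.

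Ighg2b was followed by Tubg2 (0.989), Dclre1a (0.970) and Calu (0.970). Ighg2c was followed by the κ variable gene Igkv10-95 (0.956), the pseudogene Gm26528 (0.946) and the κ variable gene Igkv3-10 (0.944). Ighe was followed by Tmx3 (0.981), Zfp974 (0.976) and Zfp934 (0.9755), and Igha by Cenpj (0.980), Chpf2 (0.973) and Ccdc77 (0.969). Ighg2c was thus the only one of the 8 with immunoglobulin genes among its 3 closest. Without the 2 mice farthest from the median of each heavy chain gene, r ranged from 0.728 for Gm37169 with Ighg1 to 0.967 for Tubg2 with Ighg2b.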

How the data were processed

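RNA sequencing measured the transcripts of total splenocytes in 8 libraries, 1 per mouse, prepared with Illumina TruSeq v2. The authors deposited raw counts per gene, and their own comparison of tRA with control (fold changes and adjusted p-values) was not used. The study's methods name ea-utils and Btrim for trimming, Bowtie2 and Tophat2 for alignment and HTSeq for counting, whereas the submitters' processing notes name STAR 2.5.2b and featureCounts 1.5.1. Both name DESeq2 (1.26.0 in the notes) and a mouse genome of build 38 (GRCm38 in the notes). Which of the tools made the table is not given in the sources used here, nor is how reads with several matches were counted.

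Of 51826 identifiers, 51633 matched GENCODE M21, which gave symbols, positions, lengths and transcript sequences. The analysis ran in R 4.3.3 and used edgeR 4.0.16 (filterByExpr with a minimum of 10 counts, TMM, quasi-likelihood test of group, all 8 mice, FDR under 0.1 over all genes tested). Alternatives used RLE, library size alone, factors without immunoglobulin genes, no filter, DESeq2 1.42.0 with its own filter or on the genes past the edgeR filter, limma-voom (limma 3.58.1), a replicate block, and each mouse left out. Intervals of log2 fold changes are 95% and derive from the quasi-likelihood F statistic. The exact two-sided permutation test used log2 CPM. Coding sequences were aligned with Biopython 1.88, and figures were drawn with matplotlib 3.10.9 in Python 3.11.15. The scripts were tested on simulated data.

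Named genes were the 8 heavy chain genes, Igkc, Iglc1, Iglc2, Iglc3 and Jchain, from each list the most abundant gene, up to 3 genes at an unadjusted p under 0.05 by size of change and any gene without counts, and up to 3 genes closest to each heavy chain gene. Il13, Il5, Gm37944, Slamf7, Prdm1, Xbp1 and Irf4 were named in addition, after their values were seen. Of 6 count ratios, all chosen after the levels were seen, all are given. The heavy chain genes and the lists were chosen with earlier results of these data known.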

Additional observations from a re-analysis of the deposited data

Results flagged for a closer look

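In 140 groups of 4 values examined for a mouse far from the other 3, 9 held such a mouse, and chance gives about 1 in 20. For heavy chain genes this was tRA mouse 2, with 1.43 Igha counts for each IgG count and an Igha share of 58.6% of the switched counts, both the highest of its group and from the same counts, and control mouse 4, with the lowest ratio of Ighg1 to Ighg2c in its group (2.55). For the other genes, control mouse 4 was the lowest control mouse for H2afx (38.0 CPM) and Iglc3 (144 CPM) and the highest for the summed plasma cell markers (1294 CPM). In the tRA group, mouse 1 was the highest for Lck (568 CPM), and mouse 4 the highest for Camp (42.7 CPM) and for the summed neutrophil markers (768 CPM).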

How the results depend on the processing

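The number of genes called at an FDR under 0.1, 0 with edgeR, was 6 with no filter on low counts, 27 with DESeq2 and its own filter, 25 with DESeq2 on the genes past the filter, an alternative chosen after seeing the data, and 1 with limma-voom, and 0 to 3 with a mouse left out (3 without tRA mouse 4); none of the 8 heavy chain genes was among them, and the cause was not tested. At an unadjusted p under 0.05, 1070 genes became 2105 without tRA mouse 1 and 657 without tRA mouse 4. Scaling by library size alone turned the split from 485 higher and 585 lower into 657 higher and 501 lower. The count of heavy chain genes at this threshold, 1, was 2 with no filter and with DESeq2 under either filter (Igha with Ighe under its own, with Ighm under the other), and 0 to 1 with a mouse left out (0 without control mouse 3 or tRA mouse 2).

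Over all alternatives the log2 fold changes of Ighm, Ighd, Ighe and Igha kept their sign. With a mouse left out they ranged from -0.27 to -0.15 for Ighm, 0.11 to 0.20 for Ighd, 0.71 to 1.66 for Ighe and 0.37 to 0.65 for Igha, whose FDR was 0.211 to 0.999 over its alternatives. The sign of the IgG genes turned with the mouse left out, over -0.22 to 0.00279 for Ighg3 (without control mouse 4), -0.19 to 0.28 for Ighg1, -0.23 to 0.22 for Ighg2b and -0.74 to 0.0835 for Ighg2c (without control mouse 4). With a mouse left out, the IgA share of the 8 genes was 0.431 to 0.602 percentage points higher in tRA, and 0.360 when counts were taken per kb of exon. The difference in IgG share turned sign without tRA mouse 3 (-0.0207). The summed level differed by -1228 CPM with all mice and by -1579 to -735 CPM with a mouse left out. Taken per kb of exon, in another unit, the difference was -658 CPM per kb. The ratios kept their sign with a mouse left out, except Ighm over Igkc (-0.126 to 0.0104).

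The alternatives for the listed genes and the ratios were chosen after seeing the data. An unadjusted p under 0.05 was lost by Lig4 without immunoglobulin genes in the scaling (0.0516), with no filter (0.0604) and without 6 of the 8 mice in turn (up to 0.129), by S1pr2 with no filter (0.0501), with limma-voom (0.0515) and without 6 of the 8 mice in turn (up to 0.134), and by Derl3 with library size alone (0.0554) and without control mouse 4 (0.113), tRA mouse 1 (0.0795) or tRA mouse 4 (0.0641). Leaving out a mouse gave -0.50 to -0.23 for Derl3, -0.39 to -0.09 for Iglc1, -0.23 to -0.09 for Iglc2, -0.21 to -0.11 for Igkc, 0.12 to 0.28 for Bcl6, 0.02 to 0.11 for Parp1, 0.03 to 0.08 for Stat6, 0.10 to 0.23 for Fcer2a, -0.77 to -0.43 for Ifng and -0.89 to -0.54 for Tnfrsf17. Jchain, Mzb1, H2afx, Ifng and Tnfrsf17 kept an unadjusted p under 0.05 under all alternatives. With a mouse left out, signs turned for Zfp318 (-0.0196 to 0.12), Cr2 (-0.0879 to 0.0378), Lck (-0.13 to 0.0138), Hbb-bs (-0.16 to 0.93), Vcam1 (-0.19 to 0.12) and Iglc3 (-0.0167 to 0.10), and Cr2 was 0.00609 with library size alone. Camp passed an FDR of 0.1 with no filter, DESeq2 under either filter, limma-voom and without tRA mouse 4, and Ngp and Ltf with no filter, DESeq2 under either filter and without tRA mouse 4.

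With the replicate block, 0 genes were called, Ighg2b was at -0.01, and the unadjusted p was 0.00326 for Igha (FDR 0.647), 0.0758 for Lig4 and 0.0675 for S1pr2. Deviations of same-numbered mice from their group means correlated at 0.157, -0.023, -0.014 and 0.259. Control mice 1 and 4 correlated best with the tRA mouse of their own number, and control mice 2 and 3 did not. So few and such low values cannot decide whether same-numbered mice belonged together, and the labels give a number only.

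The table is on the C57BL/6 reference, and reads of Balb/c alleles that differ from it were not examined. Counts per gene do not separate the secreted from the membrane form, or RNA of plasma cells from that of other B cells. Ighe had 6 to 68 counts per library, and some mice of the same group differed by more than the Poisson intervals of these counts. Those intervals cover counting error only and leave out differences between mice, so nothing further is read from this.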
